A study of Mus musculus with 48 samples.

Results

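Hippocampal gene expression was compared between mice given both angiotensin II and hydralazine and mice given neither. Mice of the both drugs group received angiotensin II by osmotic minipump (0.7 mg per kg per day) for 2 weeks and drank hydralazine (50 mg per kg). Mice of the vehicle group were infused with saline for the same 2 weeks, without hydralazine. All were male wild-type C57Bl6 mice, and the labels give the disease state as hypertension for the both drugs group and as control for vehicle, with no age and no blood pressure. There were 6 libraries in each group, 12 of the 48 in the series, chosen by tissue and treatment label alone. The labels do not say whether each library is a separate mouse, and p-values therefore speak only of library-to-library spread, which may be technical. Expression was given as FPKM, the number of fragments scaled by gene length and by library depth. The analysis used log2(FPKM + 0.5) for the 14304 genes with at least 0.5 FPKM in 6 or more of the 12 libraries.

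Angiotensin II is the effector peptide of the renin-angiotensin system: angiotensinogen (Agt) is cleaved by renin and then by angiotensin-converting enzyme (Ace), and the peptide acts on its receptors in vessels, kidney and brain to raise blood pressure. Hydralazine relaxes arterial smooth muscle and lowers blood pressure without blocking those receptors. The hippocampus, a structure needed for memory, is made of granule neurons of the dentate gyrus and pyramidal neurons of the CA fields, with glia and a dense capillary bed. The comparison sets hippocampal RNA with both agents present against hippocampal RNA with neither.

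Each library held between 12.7 M and 21.001 M reads in genes (M, 1000000 reads). Both drugs replicate 5 listed 12915 genes above 0, vehicle replicate 3 listed 12322 and vehicle replicate 4 listed 15684, against 18914 to 22466 in the other 9 libraries. The main results are therefore also given over those 9 libraries (5 of both drugs, 4 of vehicle). Vehicle replicate 5 stood apart in genes of neighbouring tissue: the summed level of 12 thalamus and midbrain genes was 337.8 FPKM there, against 18.2 to 34.4 FPKM in both drugs libraries and 26.3 to 33.7 FPKM in the other vehicle libraries. Tcf7l2, a transcription factor of thalamic neurons, was at 14.7 FPKM in that library, and at most at 1.20 FPKM in the others. In both drugs replicate 3, mitochondrial transcripts made up 6.40% of reads in genes, against 8.17% to 9.93% in the other both drugs libraries and 8.26% to 10.5% in vehicle libraries. The 5 library measures tested did not differ between groups beyond their spread (two-sided exact permutation test over all regroupings, p = 0.407 to 0.892, Benjamini-Hochberg adjusted over the 5 measures 0.879 to 0.892, smallest possible p = 0.00216).

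**Figure D1:**
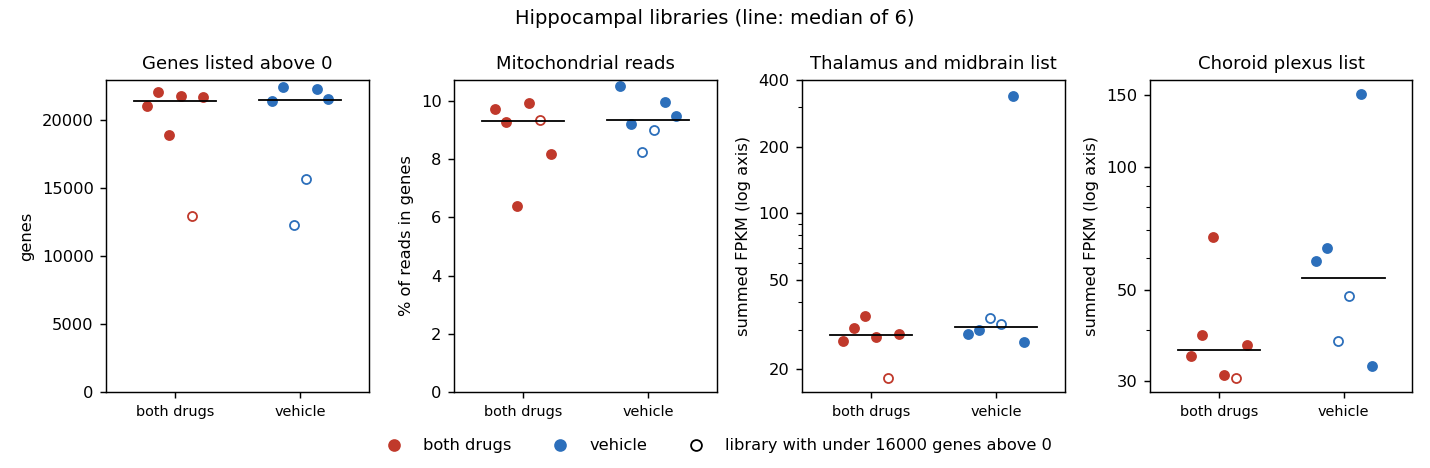
Points are libraries of the hippocampus (both drugs left, vehicle right), open where fewer than 16000 genes were above 0, and lines are medians of 6. The panels show genes listed above 0, the percent of reads in genes that were mitochondrial, and the summed FPKM of the thalamus and choroid plexus lists on log axes, where vehicle replicate 5 stands at 337.8 and 151.2 FPKM.

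Defining genes of the hippocampus were present in all 12 libraries. Prox1, the granule neuron transcription factor, was at 5.14 to 8.84 FPKM with both drugs and at 6.63 to 11.9 FPKM in vehicle. C1ql2, a mossy fibre synapse protein, was at 62.6 to 153 FPKM with both drugs and at 72.4 to 116 FPKM in vehicle. Slc17a7, the vesicular glutamate transporter of excitatory neurons, was at 299 to 358 FPKM with both drugs, against 229 to 409 FPKM in vehicle, with the lowest value in vehicle replicate 5. Wfs1 (CA1) was at 51.8 to 75.1 FPKM with both drugs and 44.5 to 69.3 FPKM in vehicle, and Bok (CA3) at 84.5 to 114 FPKM with both drugs and 80.8 to 132 FPKM in vehicle.

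No hippocampal gene passed the test between both drugs and vehicle. At a Benjamini-Hochberg adjusted p under 0.05 limma called 0 of 14304 genes (0%), and the lowest adjusted p was 0.844. At an unadjusted p under 0.05 there were 501 genes (3.50%), fewer than the 715.2 that a 5% rate gives. Of these, 329 had higher values with both drugs (2.30% of genes tested) and 172 lower (1.20%). The FPKM of the groups did not overlap for 53 genes (0.371%), 33 with both drugs above vehicle (0.231%) and 20 below (0.140%). Over the 9 libraries limma also called 0 of 14388 genes (0%), with a lowest adjusted p of 0.692. There 996 genes had an unadjusted p under 0.05 (6.92%), of which 641 were higher with both drugs (4.46%) and 355 lower (2.47%), where a 5% rate gives 719.4. A total of 221 genes had an unadjusted p under 0.05 in both analyses, which share 9 libraries, and the direction was the same for all 221.

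The width of the intervals shows how closely single genes were estimated, before adjustment. A call after adjustment needed more than an interval clear of 0. Over 12 libraries 501 genes had such an interval (unadjusted p under 0.05, limma) and 0 were called. Over 12 libraries the median half-width of the 95% interval was 0.44 on the log2 scale, and for 73.9% of genes the whole interval lay within a log2 fold change of -1 to 1. Over 9 libraries the median half-width was 0.25, and 95.3% of genes had their interval within those limits. Differences of the size given for the protein-coding genes below did not pass at this number of libraries after adjustment.

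The 10 named protein-coding genes with the smallest p over 12 libraries are given as not passing, each with an adjusted p of 0.844 (limma). Kcnk2 (chr1:189207930-189402273, minus strand, GRCm38) encodes a background potassium channel, and shorter genes lie within it on both strands. It had a lowest, median and highest level of 12.8, 13.8 and 17.7 FPKM with both drugs, against 10.4, 10.9 and 11.6 FPKM in vehicle. The groups did not overlap, and the log2 fold change was 0.36 ± 0.09 (SE) over 12 libraries and 0.41 ± 0.09 over 9. Tmsb4x, thymosin beta, which binds actin monomers, had 2113, 2211 and 2376 FPKM with both drugs, against 1630, 1855 and 2061 FPKM in vehicle. These groups did not overlap either, with a log2 fold change of 0.26 ± 0.07. Btbd9, a BTB domain protein linked to restless legs syndrome in humans, had 13.7, 16.1 and 21.3 FPKM with both drugs, against 9.62, 12.8 and 13.7 FPKM in vehicle. All both drugs libraries lay above all vehicle libraries, by a narrow margin, with a log2 fold change of 0.44 ± 0.13.

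Dzank1 (chr2:144470557-144527414, minus strand), whose protein carries zinc finger and ankyrin repeats, lay lower with both drugs. It had 6.59, 7.42 and 7.78 FPKM with both drugs, against 8.39, 9.44 and 12.1 FPKM in vehicle, without overlap. Its log2 fold change was -0.42 ± 0.11 over 12 libraries and -0.44 ± 0.09 over 9. Mtmr4, an endosomal lipid phosphatase, had 5.03, 6.11 and 6.44 FPKM with both drugs, against 6.97, 7.78 and 10.9 FPKM in vehicle. The groups did not overlap, and the log2 fold change was -0.40 ± 0.12. Scrt1, a transcriptional repressor of neurons, had 26.3, 29.3 and 36.4 FPKM with both drugs, against 33.1, 38.0 and 43.1 FPKM in vehicle. These overlapped, since both drugs replicate 5 stood above the lowest vehicle library, and the log2 fold change was -0.33 ± 0.09.

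Of the others, Ppp1r1a encodes an inhibitor of protein phosphatase that protein kinase A switches on. It had 230, 264 and 307 FPKM with both drugs, against 163, 196 and 256 FPKM in vehicle. The overlap came from vehicle replicate 4, and the log2 fold change was 0.39 ± 0.10 over 12 libraries and 0.40 ± 0.09 over 9. Grasp, a scaffold for metabotropic glutamate receptors, had 36.1, 38.4 and 49.7 FPKM with both drugs, against 23.1, 28.0 and 36.6 FPKM in vehicle. Its groups overlapped at the edge, with a log2 fold change of 0.52 ± 0.13, the largest of the 10, and of 0.38 ± 0.13 over 9 libraries. Sh3bgrl3 (0.34 ± 0.09) and Lsm7, part of a ring that binds spliceosomal RNA (0.45 ± 0.13), had overlapping groups and positive log2 fold changes.

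**Figure D2:**
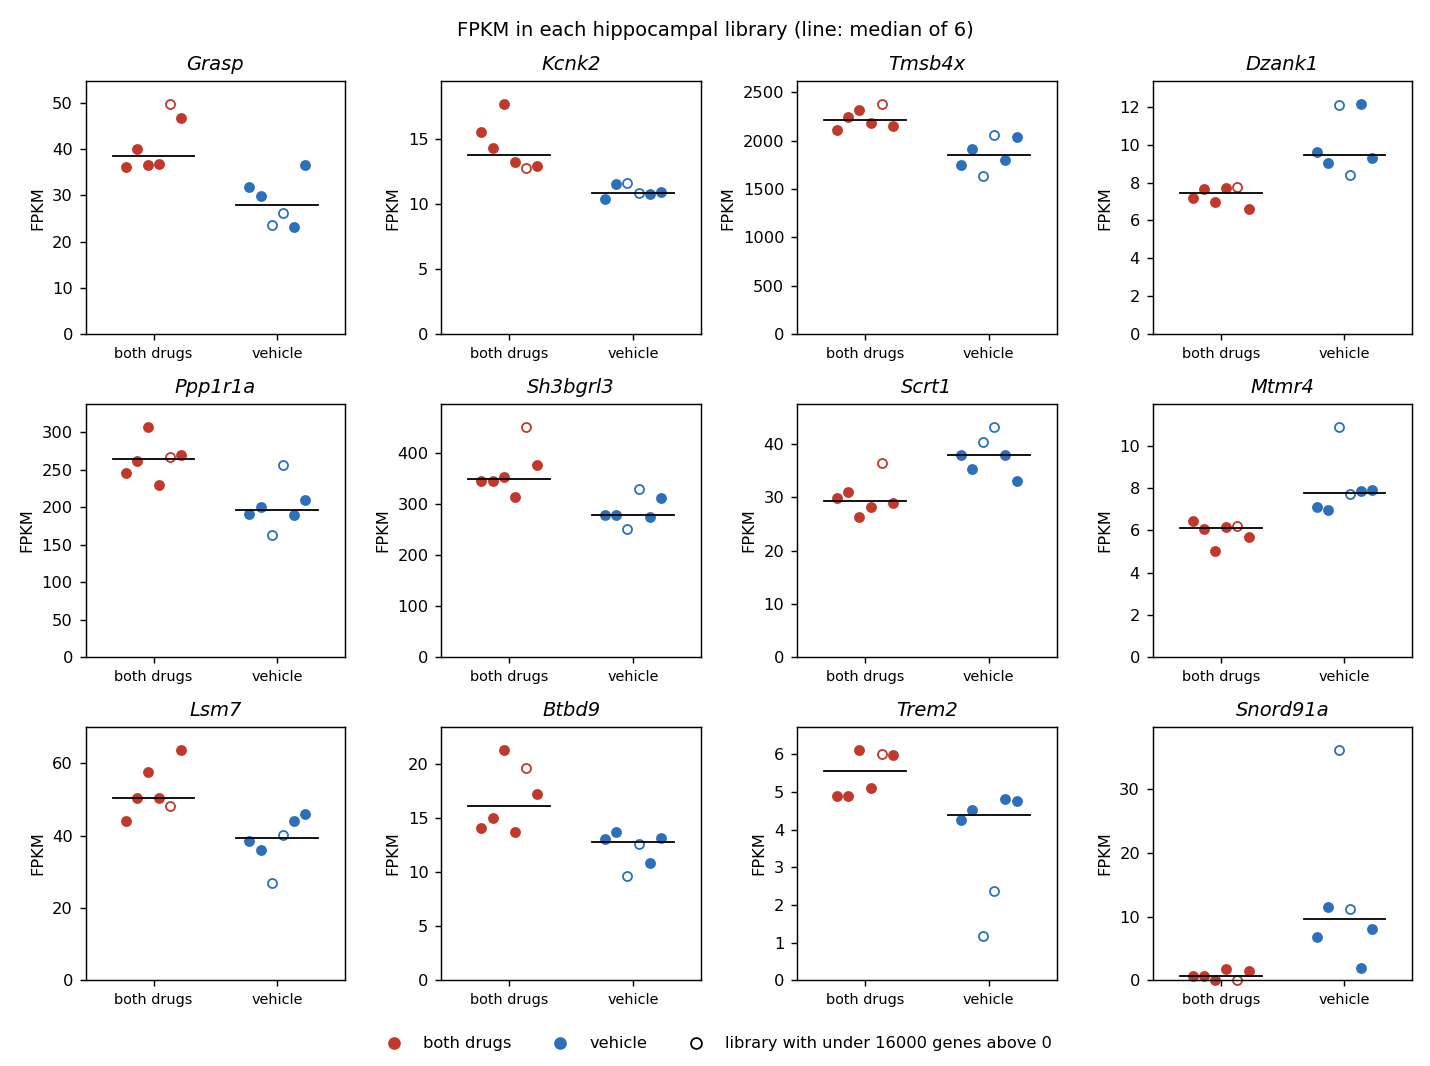
Each panel plots FPKM of 1 gene in the 12 hippocampal libraries from an axis that starts at 0, with both drugs left and vehicle right. Open points are libraries with fewer than 16000 genes above 0, and lines are medians of 6. The 2 groups are apart for Kcnk2, Tmsb4x, Dzank1, Mtmr4, Btbd9, Trem2 and Snord91a, and overlap for the rest.

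Over the 9 libraries the same rule named Kcnk2, Dzank1, Ppp1r1a and Scrt1 again, and 6 others, each with an adjusted p of 0.692 (limma) and with groups that did not overlap there, as was so for 438 of all genes tested (3.04%). Zfp61, a zinc finger protein, had 3.79, 4.02 and 5.23 FPKM with both drugs, against 1.14, 2.93 and 3.37 FPKM in vehicle over all 12 libraries. Here too the groups were apart, with a log2 fold change of 0.39 ± 0.09 over 9 libraries and 0.62 ± 0.20 over 12. Dbp, a clock-controlled transcription factor, had a log2 fold change of 0.35 ± 0.07 over 9 libraries. Over 12 it had 14.6, 16.4 and 26.1 FPKM with both drugs, against 11.4, 13.3 and 22.96 FPKM in vehicle, where the 2 highest values came from both drugs replicate 5 and vehicle replicate 3. Inka2, an inhibitor of a p21-activated kinase, had 0.38 ± 0.08 over 9 libraries. Rcl1, needed for ribosomal RNA processing, had 0.36 ± 0.07 over 9 libraries. Its 12-library value was 0.16 ± 0.59, since both drugs replicate 5 (1.15 FPKM) and vehicle replicate 3 lay far below the rest.

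Atf3 and Ifit3b lay lower with both drugs over the 9 libraries. Atf3, a transcription factor induced by cell stress, had 0.788, 1.09 and 4.49 FPKM with both drugs over all 12, against 1.35, 1.84 and 3.54 FPKM in vehicle. The highest value of each group came from a library with few genes, and without those libraries the log2 fold change was -0.58 ± 0.13. Ifit3b, an interferon-induced gene, was between 0 and 1.06 FPKM with both drugs and between 0 and 1.92 FPKM in vehicle, with a log2 fold change of -0.63 ± 0.14 over 9 libraries and -0.18 ± 0.47 over 12.

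The gene with the smallest p over 12 libraries was a small nucleolar RNA, Snord91a, which was picked out after its values were seen. Box C/D small nucleolar RNAs guide methylation of the ribose in other RNAs, and they are named after their short C and D sequence boxes. Snord91a lies at chr11:74905424-74905516 (plus strand, GRCm38), within Tsr1 on the same strand. It falls in an intron of 4 of 7 Tsr1 transcripts in GENCODE M21 and in no exon, while the other 3 transcripts do not reach it. Its 93 bases are shown because this RNA has the lowest p in the comparison, with capitals for TGATG, the core of box C, and CTGA, box D.
Snord91a: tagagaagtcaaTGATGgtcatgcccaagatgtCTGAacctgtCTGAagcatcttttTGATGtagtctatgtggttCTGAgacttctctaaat
On the transcript's strand TGATG occurs 2 times, first at base 13, and CTGA 3 times, last at base 77, with no overlap between them. Both motifs occur in 497 of 1507 annotated small nucleolar RNA transcripts and in 132 of the 224 (58.9%) that are 80 to 110 bases long. A match describes these letters only.

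Snord91a had 0.647, 0.595, 0, 1.77, 0 and 1.42 FPKM in both drugs replicates 1 to 6, against 6.76, 11.5, 36.2, 11.2, 1.95 and 7.997 FPKM in vehicle replicates 1 to 6. These are few reads: 1, 1, 0, 3, 0 and 2 with both drugs, against 11, 22, 42, 15, 3 and 12 in vehicle. The groups did not overlap, though vehicle replicate 5 stood just above the highest both drugs library. The log2 fold change was -3.19 ± 0.58 (unadjusted p = 0.00010, adjusted p = 0.844, limma) and -2.42 ± 0.52 over 9 libraries. The host gene Tsr1, a factor for assembly of the small ribosomal subunit, had 1.95, 2.44 and 2.76 FPKM with both drugs, against 1.40, 2.27 and 4.32 FPKM in vehicle, a log2 fold change of -0.03 ± 0.23. In the other hippocampal groups the reads of Snord91a were as uneven, with 4, 10, 0, 7, 1 and 90 in angiotensin II libraries and 3, 16, 0, 0, 8 and 4 in vehicle plus hydralazine libraries, where each 0 came from a library with fewer than 16000 genes above 0. In the hemisphere it averaged 26.9 ± 7.1 FPKM with both drugs and 23.4 ± 11.3 FPKM in vehicle (SD, n = 6 each). With limma's library weights over 12 libraries Snord91a was called (log2 fold change -2.62 ± 0.32, adjusted p = 0.0181, and 0.149 to 0.99995 over the other alternatives), and over all 16 alternatives other than single left-out libraries it lay between -4.19 and -2.09.

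A set of 43 lists of cell types and pathways, with 610 distinct genes, was read by their counts and medians beside those of all genes. Over all 14304 genes, 54.9% had a positive log2 fold change and the median was 0.03; over the 9 libraries these were 53.5% and 0.01. Of the list genes, 513 were tested over 12 libraries, 0 were called, and 30 had an unadjusted p under 0.05 (5.85%, beside 3.50% of all genes). Over the 9 libraries these were 45 of 514 (8.75%, beside 6.92% of all genes). The lists were written with earlier results of these data known, so a higher share among list genes is no test of the lists. Leaving out 1 library moved many list medians by more than 1.5 times. Such values are given beside many lists, with the library named or as a range. A list without such a value was not thereby shown to be steady. In bulk tissue fewer cells of a type and less RNA per cell cannot be told apart.

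Within the renin-angiotensin list, 6 of 12 genes were tested. Agt had 9.89, 11.9 and 14.8 FPKM with both drugs, against 9.80, 14.9 and 58.0 FPKM in vehicle. The 58.0 FPKM belonged to vehicle replicate 5, the library with thalamic transcripts, and the groups overlapped. The log2 fold change of Agt was -0.60 ± 0.34, and 0.05 without that library and the 3 with few genes. Ace had 0, 0.976 and 1.70 FPKM with both drugs, against 0, 1.23 and 4.01 FPKM in vehicle, with overlap. The angiotensin receptor gene Agtr1a did not pass the filter on low values, at 0 to 0.281 FPKM with both drugs and 0 to 0.157 FPKM in vehicle. Ctsd, a lysosomal protease, had a log2 fold change of 0.26 ± 0.11, the 1 gene of this list with an unadjusted p under 0.05.

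No gene of the vessel wall was called. Of 20 endothelial genes 12 were positive (median 0.11), 2 of them with an unadjusted p under 0.05, and without vehicle replicate 3 there were 10 (median 0.06). The other 8 were negative, down to -0.47, and are not among the genes named below. Over 9 libraries 11 were positive and 9 negative (median 0.12), with 2 higher and 1 lower at an unadjusted p under 0.05. Single left-out libraries gave medians of 0.0013 to 0.19 there. Podxl, a sialomucin of the endothelial surface, had 4.07, 4.92 and 6.26 FPKM with both drugs, against 1.29, 3.61 and 4.86 FPKM in vehicle. These overlapped, with a log2 fold change of 0.66 ± 0.26 over 12 libraries and 0.31 ± 0.12 over 9. Ly6a, an endothelial surface protein of mouse brain, had 38.1, 41.6 and 58.7 FPKM with both drugs, against 28.5, 31.7 and 49.1 FPKM in vehicle. Again the groups overlapped, and its log2 fold change was 0.35 ± 0.14 over 12 libraries and 0.17 ± 0.13 over 9. Pecam1, an endothelial adhesion protein, lay between 2.34 and 4.54 FPKM with both drugs and between 0 and 3.16 FPKM in vehicle, with a log2 fold change of 0.74 ± 0.41 over 12 libraries and 0.16 ± 0.11 over 9.

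Cldn5, the tight junction protein of brain endothelium, had 46.3, 58.7 and 65.7 FPKM with both drugs, against 32.9, 53.7 and 68.7 FPKM in vehicle, and 0.14 ± 0.15 as log2 fold change. The adhesion receptor Vcam1 had 1.72, 2.29 and 2.62 FPKM with both drugs, against 1.25, 2.11 and 2.34 FPKM in vehicle, and 0.15 ± 0.17. The groups overlapped for both genes. Eln, elastin, lay between 0 and 1.20 FPKM with both drugs and between 0 and 0.929 FPKM in vehicle, and Edn1, the vasoconstrictor endothelin, between 0 and 3.43 FPKM with both drugs and between 0 and 2.23 FPKM in vehicle. In the hypoxia list, Vegfa (chr17:46016993-46032369, minus strand), the endothelial growth factor, lay lower with both drugs. It had 3.65, 3.87 and 5.69 FPKM with both drugs, against 4.98, 6.10 and 7.31 FPKM in vehicle, with overlap. Its log2 fold change was -0.45 ± 0.14 over 12 libraries (unadjusted p = 0.0057, adjusted p = 0.844, limma) and -0.52 ± 0.14 over 9. Of the 15 hypoxia genes tested 8 were positive over 12 libraries (median 0.16), 5 without vehicle replicate 3 (median -0.05) and 4 over 9 libraries (median -0.04). Over 9, single left-out libraries gave medians of -0.08 to 0.0013.

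Microglia are the resident immune cells of the brain. Of 16 microglial genes 10 were positive (median 0.19), and over 9 libraries 12 were (median 0.10). Without vehicle replicate 3 alone the median over 12 libraries was 0.08, and over 9 single left-out libraries gave medians of 0.05 to 0.12. Trem2, a lipid receptor of microglia, had 4.90, 5.55 and 6.12 FPKM with both drugs, against 1.17, 4.39 and 4.83 FPKM in vehicle. The groups did not overlap, and the 2 lowest values were vehicle replicates 3 and 4, which list few genes. The log2 fold change of Trem2 was 0.64 ± 0.27 over 12 libraries and 0.21 ± 0.09 over 9. C1qa, a chain of the first complement component, had 96.3, 109 and 172 FPKM with both drugs, against 61.2, 94.1 and 104 FPKM in vehicle, with overlap. Its log2 fold change was 0.40 ± 0.16 over 12 libraries and 0.17 ± 0.10 over 9. Aif1, a calcium-binding protein of microglia, was listed at 0 in vehicle replicate 3 and at 6.40 to 8.13 FPKM in the other vehicle libraries, against 7.04 to 12.4 FPKM with both drugs. Cd68, a lysosomal protein, had 3.13, 8.71 and 10.8 FPKM with both drugs, against 8.07, 9.20 and 20.5 FPKM in vehicle. Its log2 fold change was -0.51 ± 0.29 over 12 libraries and 0.01 ± 0.12 over 9.

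Of 10 complement genes tested 8 were positive (median 0.27), and 7 over 9 libraries (median 0.08). Of 15 antigen presentation genes 12 were positive (median 0.13), and 14 over 9 libraries (median 0.08). Without vehicle replicate 3 alone the complement median was 0.09 with 6 positive, and the antigen presentation median was -0.07 with 6 positive; over 9 libraries, complement had a median of 0.0055 with 5 positive without both drugs replicate 4, and antigen presentation -0.02 with 7 positive without vehicle replicate 1. Of 15 cytokine and chemokine genes 5 passed the filter. Of these 4 were positive (median 0.07), and 3 over 9 libraries (median 0.0081). Single left-out libraries gave medians of 0.05 to 0.13 over 12 libraries and -0.02 to 0.08 over 9. Il1b and Ccl2 did not pass the filter, nor did Cybb, the catalytic subunit of the phagocyte oxidase. Il1b was at 1.03 FPKM in both drugs replicate 3 and at no more than 0.0631 FPKM in the other both drugs libraries, against 0 to 0.285 FPKM in vehicle. Markers of lymphocytes, neutrophils and border macrophages were mostly too low to test, with 2 of 14 and 2 of 8 genes passing the filter.

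Among other glia, Gfap, the intermediate filament of astrocytes, had 102, 110 and 152 FPKM with both drugs, against 96.2, 106 and 121 FPKM in vehicle. The groups overlapped, with a log2 fold change of 0.10 ± 0.10. Of 14 myelin genes 3 were positive (median -0.10), and without vehicle replicate 5 there were 5 (median -0.02), without both drugs replicate 3 none (median -0.19). Mbp, a main protein of myelin, had 336, 401 and 509 FPKM with both drugs, against 358, 439 and 529 FPKM in vehicle, a log2 fold change of -0.11 ± 0.11.

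Neuronal lists were mixed. Of 12 granule neuron genes 7 were positive (median 0.05, and 0.0054 without vehicle replicate 5). Of 11 CA2 and CA3 genes tested 5 were positive, and 2 without vehicle replicate 3. Of 10 CA1 genes 8 were positive (median 0.05), and 9 over 9 libraries (median 0.15). Wfs1, an endoplasmic reticulum protein rich in CA1, had a lowest, median and highest level of 51.8, 61.6 and 75.1 FPKM with both drugs, against 44.5, 49.5 and 69.3 FPKM in vehicle. The groups overlapped, with a log2 fold change of 0.28 ± 0.12. Vehicle replicate 5, the library with high thalamic transcripts, moved with this list: without it 3 of the 10 CA1 genes were positive over 12 libraries (median -0.06) and 5 over 9. Of 16 excitatory synapse genes 8 were positive (median -0.01), and over 9 libraries 13 (7 without vehicle replicate 5). Camk2b, a subunit of the calcium and calmodulin kinase of synapses, had 0.21 ± 0.09.

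Immediate early genes are switched on within minutes by neuronal activity. Of 20 such genes 6 were positive (median -0.10), and over 9 libraries 5 (median -0.08). Leaving out 1 library gave 4 to 9 positive over 12 libraries (medians -0.18 to -0.02) and 4 to 12 over 9 (medians -0.21 to 0.012). The highest count in both came without both drugs replicate 6. Arc, an effector of synaptic plasticity, had 26.9, 44.0 and 79.5 FPKM with both drugs, against 23.7, 46.9 and 80.5 FPKM in vehicle. The 2 groups covered the same range, and the log2 fold change was -0.10 ± 0.33 over 12 libraries and 0.28 ± 0.35 over 9. Junb, a transcription factor of the same kind, had 32.5, 46.4 and 59.7 FPKM with both drugs, against 26.9, 52.3 and 69.4 FPKM in vehicle, again with full overlap. Nr4a1 (-0.24 ± 0.27), Fos (0.13 ± 0.72) and Btg2 (0.59 ± 0.64) had intervals across 0, and their sign differed between the analyses over 12 and over 9 libraries, as it did for Arc. Klf4 (-0.48 ± 0.20) and Nr4a2 (-0.30 ± 0.12) were the 2 of this list with an unadjusted p under 0.05 over 12 libraries. Over 9 libraries 3 were lower at that level, Nr4a2, Dusp1 and Klf4. Dusp1 had a log2 fold change of -0.82 to -0.28 over 16 alternatives to the 12-library analysis. Leaving out single libraries from the 12 gave -0.68 to -0.11. Bdnf, the neurotrophin, had 6.94, 9.80 and 12.6 FPKM with both drugs, against 6.43, 10.4 and 13.9 FPKM in vehicle.

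No gene of the lists for protein synthesis and folding was called. All 36 ribosomal protein genes were positive over 12 libraries (median 0.18), and 35 over 9 (median 0.12), with 6 and 5 at an unadjusted p under 0.05. Rps27a, which makes a ribosomal protein fused to ubiquitin, had 109, 131 and 192 FPKM with both drugs, against 56.9, 87.8 and 179 FPKM in vehicle. These overlapped, with a log2 fold change of 0.59 ± 0.24. Rplp1, a stalk protein of the large subunit, had 2429, 3018 and 3780 FPKM with both drugs, against 2077, 2732 and 2901 FPKM in vehicle. Its groups overlapped, with a log2 fold change of 0.25 ± 0.12. Summed over the list, both drugs libraries held 12535 to 16424 FPKM and vehicle libraries 9932 to 14484 FPKM, with the lowest sum in each group in a library with few genes. Without vehicle replicate 3, 34 of 36 were positive and the median was 0.10. Over 9 libraries, 12 alternatives other than single left-out libraries gave medians of 0.045 to 0.19. With quantile normalization or with the trend on gene length removed over 12 libraries, 31 of 36 were positive and the median was 0.09. Ribosomal protein transcripts are short, and over the 14304 genes, which are not independent replicates, fold change and length had a rank correlation (Spearman) of -0.18. The part of that trend in the list was not tested beyond the correction just given. Many of these genes also have processed pseudogenes, among which reads can be split.

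Of 36 nuclear-encoded respiratory chain genes, which are short as well, 30 were positive over 12 libraries (median 0.07). This count was 18 with quantile normalization and 18 with the length trend removed. Without vehicle replicate 3 the median was 0.027 with 25 positive. Over 9 libraries 24 were positive (median 0.03), and 16 to 33 with single libraries left out. Alternatives other than single left-out libraries gave 9-library medians of -0.04 to 0.15. The unfolded protein response, which restores folding in the endoplasmic reticulum, pointed the other way: 1 of 12 genes tested was positive over 12 libraries (median -0.17) and 1 over 9 (median -0.17). Xbp1, the transcription factor of that response, had 22.2, 24.2 and 25.8 FPKM with both drugs, against 25.2, 28.4 and 43.8 FPKM in vehicle. The groups overlapped by a small margin, with a log2 fold change of -0.31 ± 0.12. Sdf2l1 (-0.73 ± 0.32), Creld2 (-0.25 ± 0.10) and Hspa5, the main chaperone of the endoplasmic reticulum (-0.16 ± 0.08), had overlapping groups, and Sdf2l1 had -0.20 ± 0.11 over 9 libraries. Of 14 heat shock genes 3 were positive (median -0.06), and 6 without both drugs replicate 1; single left-out libraries gave medians of -0.11 to -0.05. Hsph1, a cytosolic chaperone, had 32.5, 34.6 and 35.2 FPKM with both drugs, against 35.9, 37.9 and 54.0 FPKM in vehicle, without overlap, and a log2 fold change of -0.22 ± 0.09 (adjusted p = 0.844, limma).

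Clock genes were mixed. Of 16 genes 10 were positive over 12 libraries (median 0.06) and 7 over 9 (median -0.05). Single left-out libraries gave medians of 0.04 to 0.12 over 12 and -0.09 to -0.0034 over 9. Over the 9 libraries Dbp and Cry2 were higher and Cry1, Bhlhe40, Clock and Hlf lower at an unadjusted p under 0.05 (6.92% of all genes), while over 12 none was. Cry1, a repressor of the clock, had -0.24 ± 0.08 over 9 libraries and -0.28 ± 0.16 over 12. The time of day of dissection was not analysed here.

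**Figure D3:**
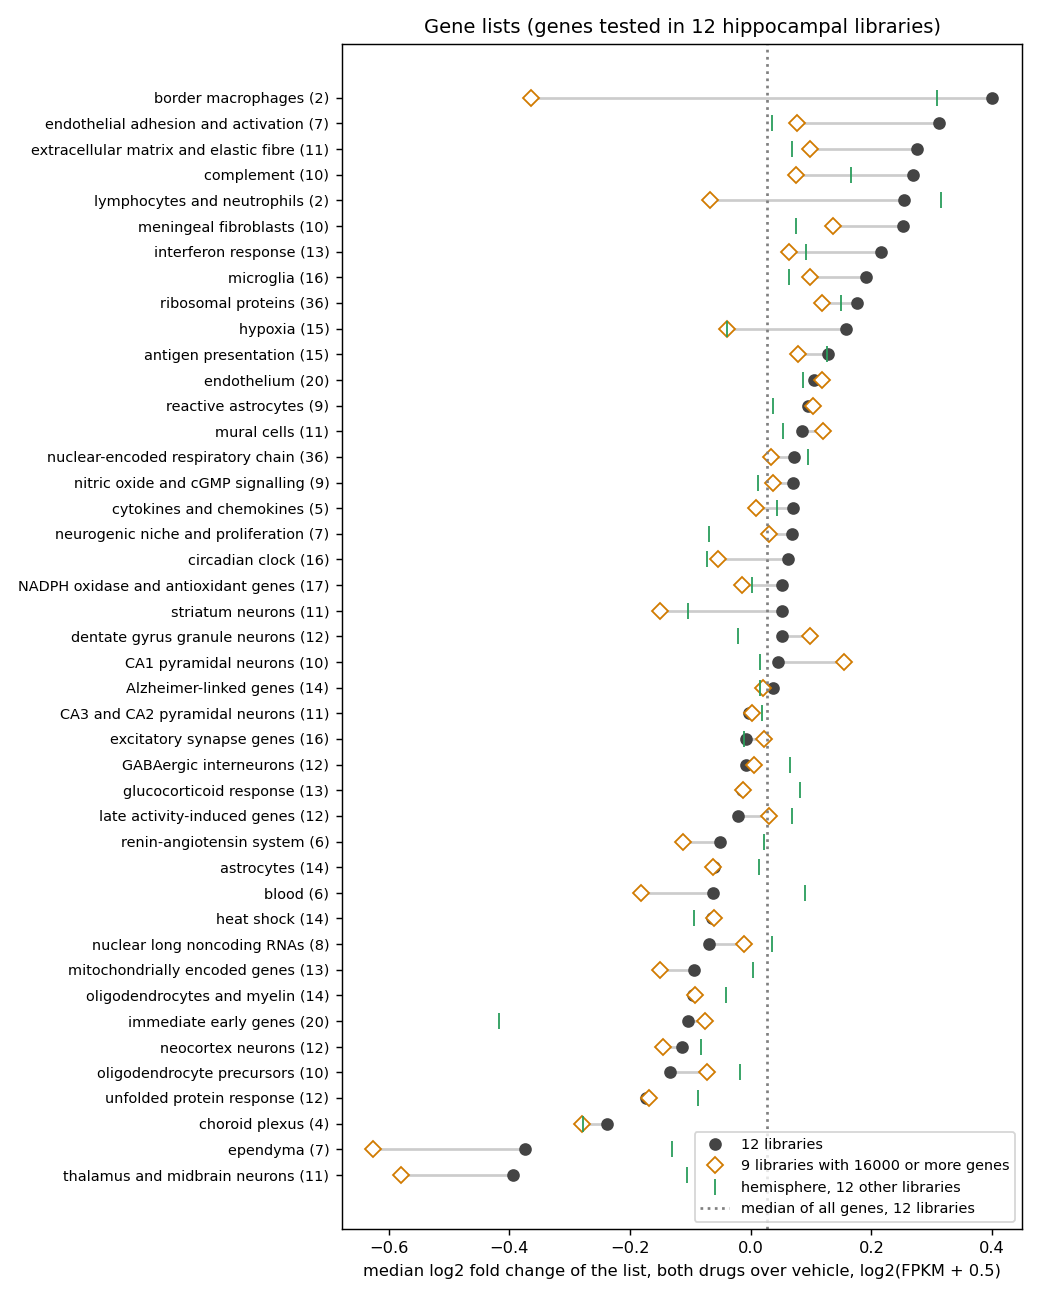
Rows are gene lists with the number of genes tested over 12 libraries, and the axis is the median log2 fold change of the list, both drugs over vehicle. Circles are 12 hippocampal libraries, diamonds the 9 with at least 16000 genes, and ticks the hemisphere. The thalamus and ependyma lists lie lowest (-0.39 and -0.37 over 12 libraries), and the ribosomal protein list is at 0.18 and 0.12.

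Lists of tissue that borders the hippocampus went both ways. All 11 thalamus and midbrain genes tested were negative (median -0.39), and without vehicle replicate 5 the median was -0.07 with 3 of 10 positive. Of 7 ependymal genes 1 was positive over 12 libraries (median -0.37), and without vehicle replicate 5 there were 3 (median -0.08). Over 9 libraries 0 of 7 were positive (median -0.63), 2 of them lower at an unadjusted p under 0.05. There, single left-out libraries, vehicle replicate 5 among them, gave medians of -0.98 to -0.35. Foxj1, the transcription factor of motile cilia, had 4.03, 4.75 and 7.43 FPKM with both drugs, against 5.27, 6.66 and 11.8 FPKM in vehicle. The groups overlapped, and the highest value was that of vehicle replicate 5. The summed level of 12 choroid plexus genes had a median of 35.7 FPKM with both drugs (30.5 to 67.6) and 53.6 FPKM in vehicle (32.5 to 151.2). The sum of 12 meningeal genes ran from 349.9 to 1336 FPKM with both drugs and from 348.4 to 1114 FPKM in vehicle. Of the 10 meningeal genes tested 9 were positive (median 0.25), and 8 over 9 libraries (median 0.14). Without vehicle replicate 3 the median over 12 libraries was 0.05 with 6 positive, and without both drugs replicate 3 the median over 9 was -0.07 with 3 positive. How much of the results above moves with these tissues was not tested, beyond the values given without single libraries.

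The hemisphere of the same treatment groups, from 12 other libraries, gave 0 called genes of 15818 (0%) and 1398 with an unadjusted p under 0.05 (8.84%). The difference between regions in the effect of both drugs, tested in 1 model over 24 libraries, gave 0 of 16625 genes (0%) and 458 with an unadjusted p under 0.05 (2.75%). Without the 3 hippocampal libraries with few genes it gave 0 of 16512 (0%) and 870 (5.27%). Libraries of both regions carry the same replicate numbers, and the labels do not say whether equal numbers mark the same mouse. The model of region differences takes all libraries as independent, so its SE and p-values leave such a pairing out. Region differences are on the log2 scale, hippocampal minus hemispheric fold change. Those of the 5 named genes with the smallest p were -0.46 ± 0.11 for Dzank1, 0.39 ± 0.10 for Pcif1, 0.45 ± 0.12 for Galnt17, -0.38 ± 0.11 for Ube2q2 and -0.72 ± 0.21 for Fabp7, each with an adjusted p of 0.976 (limma). Dzank1 had a hemispheric log2 fold change of 0.04 ± 0.04, against -0.42 ± 0.11 in the hippocampus. Fabp7, a lipid-binding protein of astrocytes and radial glia, had 26.8, 31.8 and 43.0 FPKM with both drugs in the hippocampus, against 33.9, 43.7 and 77.4 FPKM in vehicle, with the highest value in vehicle replicate 5. Pcif1 encodes a methyltransferase of messenger RNA caps, Galnt17 a member of an O-glycosylation enzyme family, and Ube2q2 a ubiquitin-conjugating enzyme.

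Of all genes tested in the hemisphere 52.4% had a positive log2 fold change. Among immediate early genes 1 of 20 was positive there (median -0.42), beside 6 of 20 (median -0.10) in the hippocampus. Arc had -1.22 ± 0.31 in the hemisphere and -0.10 ± 0.33 in the hippocampus, a region difference of 1.12 ± 0.47 (unadjusted p = 0.026, adjusted p = 0.976, limma). Junb had -0.86 ± 0.22 in the hemisphere and -0.11 ± 0.22 in the hippocampus, a region difference of 0.75 ± 0.32 with the same adjusted p. Neither difference passed, so the regions were not shown to differ. Vegfa had -0.51 ± 0.12 in the hemisphere and -0.45 ± 0.14 in the hippocampus, a region difference of 0.06 ± 0.18. Podxl (0.36 ± 0.06), Ly6a (0.59 ± 0.10) and Eln (0.59 ± 0.09) had positive hemispheric log2 fold changes with an adjusted p of 0.122 (limma), and 0.66 ± 0.26, 0.35 ± 0.14 and 0.28 ± 0.35 in the hippocampus. The 36 ribosomal protein genes were all positive in the hemisphere too (median 0.15). Of 6 ependymal genes tested there 0 were positive (median -0.13).

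**Figure D4:**
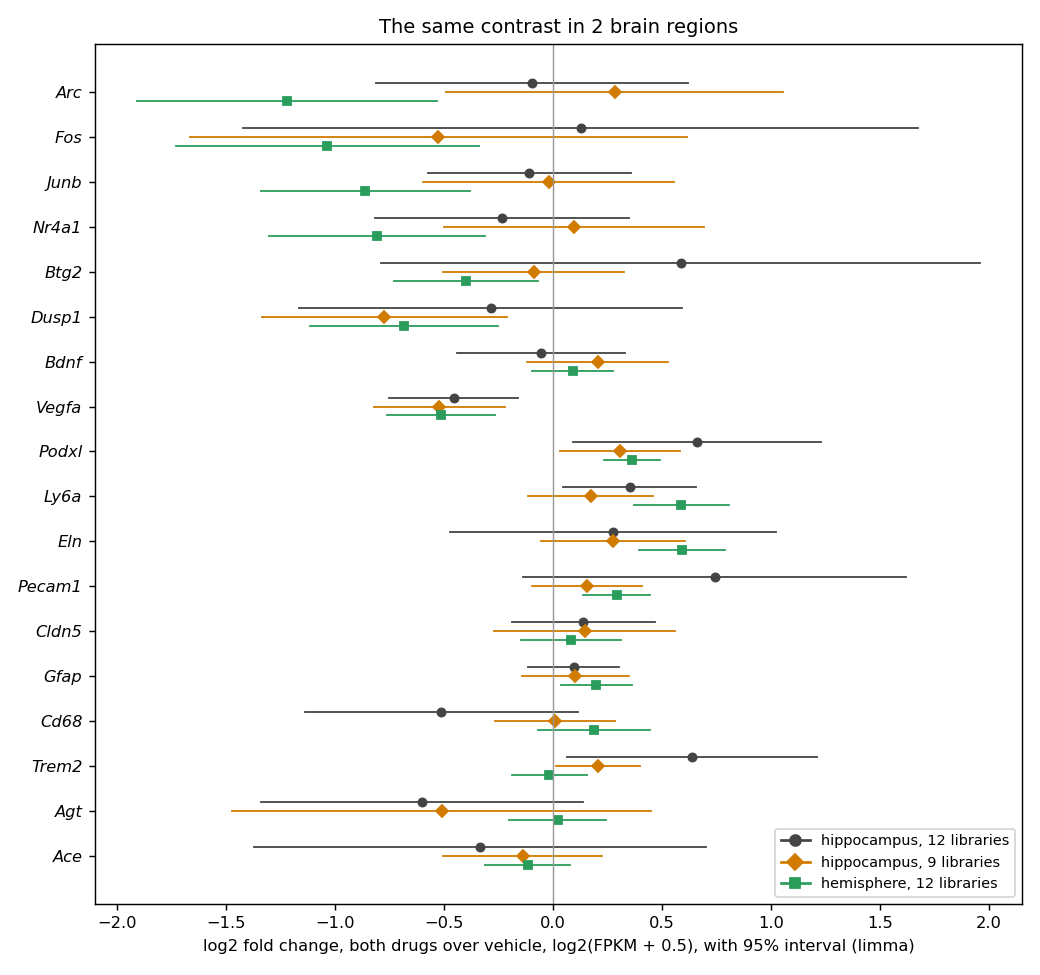
Points are log2 fold changes of both drugs over vehicle and bars their 95% intervals (limma) for 18 genes, in the hippocampus over 12 and over 9 libraries and in 12 libraries of the hemisphere. Arc, Fos, Junb and Nr4a1 are at -1.22 to -0.81 in the hemisphere with hippocampal intervals across 0, while Vegfa is at -0.52 to -0.45 in all 3.

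Values of the single drugs against the same vehicle libraries stand beside those of both drugs, from 1 model of the 4 hippocampal groups with 6 libraries each. These comparisons share the vehicle libraries, so likeness between them was not tested. In that model both drugs against vehicle gave 0 called genes (0%) and 270 with an unadjusted p under 0.05 (1.89%). Angiotensin II against vehicle gave 0 called genes (0%) and 162 at that level (1.13%), and hydralazine alone 0 (0%) and 830 (5.80%). These groups also hold libraries with fewer than 16000 genes above 0, 1 of angiotensin II (14043) and 2 of hydralazine alone (7805 and 12923), so the values follow with and without all such libraries. The second set was chosen after seeing the data and holds 5 libraries with both drugs, 5 with angiotensin II, 4 with hydralazine alone and 4 of vehicle. In that set both drugs against vehicle gave 0 called genes and 992 of 14388 at that level. Genes at that level were not counted there for the single drugs, so the counts above do not rank the treatments.

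Kcnk2 had a log2 fold change of 0.36 ± 0.11 (SE) with both drugs, 0.16 ± 0.11 with angiotensin II and 0.13 ± 0.11 with hydralazine alone. Without the libraries with few genes Kcnk2 had 0.41 ± 0.09 with both drugs, 0.12 ± 0.09 with angiotensin II and 0.20 ± 0.10 with hydralazine alone. Dzank1 had -0.42 ± 0.46 with both drugs, -0.26 ± 0.46 with angiotensin II and -1.02 ± 0.46 with hydralazine alone. In the hydralazine library with 7805 genes Dzank1 was listed at 0, against 7.23 to 8.72 FPKM in the other 5. Without the libraries with few genes Dzank1 had -0.44 ± 0.11 with both drugs, -0.23 ± 0.11 with angiotensin II and -0.37 ± 0.12 with hydralazine alone. Vegfa had -0.45 ± 0.19 with both drugs, 0.03 ± 0.19 with angiotensin II and -0.28 ± 0.19 with hydralazine alone, and without those libraries -0.52 ± 0.20, 0.07 ± 0.20 and -0.39 ± 0.21 in the same order.

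Of all genes 54.9% had a positive log2 fold change with both drugs, 56.4% with angiotensin II and 34.8% with hydralazine alone, and without the libraries with few genes 53.5%, 53.9% and 52.0% in that order. The ribosomal protein list had 36 of 36 positive with both drugs (median 0.18), 4 with angiotensin II (median -0.11) and 13 with hydralazine alone (median -0.04). Without the libraries with few genes it had 35 positive with both drugs (median 0.12), 0 with angiotensin II (median -0.24) and 29 with hydralazine alone (median 0.03).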

How the data were processed

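Per the labels' protocols, libraries were made by a sequencing company from 2 ug of total RNA, extracted with an RNeasy mini kit. Deposited values were FPKM for 54532 genes in 48 libraries, with gene lengths. GRCm38 and mm10 and DESeq 1.10.1 are named per the submitters' processing notes; the aligner, the counting tool and whether strand was used were not given in the sources used here. Values of overlapping genes are therefore uncertain. Coordinates are those of the deposited table. GENCODE M21 (GRCm38) held the identifiers of 99.8% of its genes, and for 98.3% of those the coordinates were equal. FPKM times gene length gave whole multiples of 1 read for 99.995% to 100% of values above 0 in each library (tolerance 0.1 read), which gave the depth. Each of the 30 pairs of libraries within a group differed by more than sampling noise, with a chi-square of at least 5.35 per gene.

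FPKM are not counts, so genes with at least 0.5 FPKM in 6 of 12 libraries (5 of 9 in the smaller set) were tested as log2(FPKM + 0.5), a scale that understates changes of low genes, with limma 3.58.1 in R 4.3.3 (trend, robust prior, only the 2 groups, two-sided, Benjamini-Hochberg over all genes tested). The fit was run on simulated reads, with spread drawn for each gene separately and no shift shared by a whole library. That run therefore does not bear on libraries that stand apart in many genes at once. The comparison, its gene lists and the genes of interest were chosen with earlier results of these data known. The rule for named genes took 10 protein-coding genes by smallest p, with at least 1 FPKM in a group and no clone name as symbol, 5 for the region difference, the genes of interest, and the 2 members of a list with the largest fold change; other list members, and Snord91a, were chosen after their values were seen. Pseudocounts, filters, scalings, library weights, a shared spread, a replicate block and left-out libraries were tried as alternatives; leaving out vehicle replicate 5 or both drugs replicate 3 besides the libraries with few genes, and leaving such libraries out beside the single drugs, was chosen after seeing the data. Python 3.11.15 and matplotlib 3.10.9 drew the figures.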

Additional observations from a re-analysis of the deposited data

Results flagged for a closer look

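In 30 of 136 groups of 6 values tested (22.1%), 1 library stood apart from the other 5 by more than 0.625 of the group's range. That limit flags about 1 in 20 groups of independent, normally distributed values. The groups here share the same 12 libraries and include genes and lists chosen with values known. The 1 in 20 rate is therefore no measure of how many to expect here. Of these, 18 were in the 3 libraries with few genes, 7 in vehicle replicate 5 and 4 in both drugs replicate 3.

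Both drugs replicate 5 stood apart with 12915 genes above 0, 12243 genes at 0.5 FPKM or more, and in FPKM with Rcl1 at 1.15, Dbp at 26.1, Atf3 at 4.49, Ly6a at 58.7, Pecam1 at 4.54, Grik4 at 13.2 and Gm44228 at 0.375. Vehicle replicate 3 did so with 11791 genes at 0.5 FPKM or more, and in FPKM with Mtmr4 at 10.9, Dbp at 22.96, Zfp61 at 1.14, Atf3 at 3.54, Snord91a at 36.2, and Aif1 and Gm44228 listed at 0. In vehicle replicate 4 Vcam1 was at 1.25 FPKM.

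Vehicle replicate 5 stood apart in FPKM with Fabp7 at 77.4, Agt at 58.0, Ly6a at 49.1 and Slc17a7 at 229, and with summed levels of 337.8 for the thalamus list, 151.2 for the choroid plexus list and 1114 for the meningeal list. Both drugs replicate 3 did so with Gfap at 151.8 FPKM, Il1b at 1.03 FPKM, a choroid plexus sum of 67.6 FPKM and 22.0% of reads in the 100 most abundant genes. In both drugs replicate 6 Dusp1, a phosphatase among the immediate early genes, was at 3.85 FPKM. The causes were not tested.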

How the results depend on the processing

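The count of 0 called genes held over 12 libraries under every alternative but library weights, which called 1 gene (Snord91a); leaving out single libraries gave 0 to 0 over 12 libraries and 0 to 1 over 9 (Gm15452 without both drugs replicate 4, Mir7240 without both drugs replicate 6). Genes with an unadjusted p under 0.05 over 12 libraries numbered 1371 with library weights, 270 with the spread of 4 groups and 354 to 584 without single libraries. Replicate numbers were not taken as pairs, since not every same-numbered pair correlated above 0.1 (-0.14 to 0.14, 3 of 6 above). The pairs below it, numbers 3, 4 and 5, each hold a library with few genes. Over 9 libraries the 3 complete pairs had 0.16, 0.050 and 0.14. Over 12, 3 of 6 libraries were closest to their own number. Replicate 2 listed the most genes above 0 in each of the 4 hippocampal groups (22073 to 23044). Replicate 3 listed the fewest in vehicle (12322), with angiotensin II (14043) and with hydralazine alone (7805). With both drugs replicate 5 listed the fewest (12915), and replicate 3 listed 18914. Replicate 4 was low in vehicle (15684) and with hydralazine alone (12923), and not in the other groups. These values do not settle whether equal numbers mark pairs, and the main tests leave any pairing out. The replicate block gave 0 called genes. It gave 508 genes at an unadjusted p under 0.05 over 12 libraries and 438 for the region difference. Over 9 libraries it gave 1970 (lowest adjusted p 0.202, limma). There both drugs replicates 3 and 4 and vehicle replicate 5 were each alone in their block. They add nothing to the contrast, which then rests on the 3 complete pairs. The 1970 can therefore not be set against the 996 of all 9 libraries without the block. Signs of log2 fold changes turned for these genes, among them Agt (-0.60), Cd68 (-0.51) and Btg2 (0.59 over 12 libraries). With library weights Gfap was -0.0023, Arc 0.33, Fos -0.21, Nr4a1 0.072 and Bdnf 0.18, and with quantile normalization Fos was -0.11. Without the libraries with few genes Cd68 was 0.0088, Arc 0.28, Fos -0.53, Nr4a1 0.097, Btg2 -0.087, Bdnf 0.21 and Slc17a7 0.025; differences in library measures were then -839.3 genes above 0, -21.3 genes at 0.5 FPKM or more and -0.0494 M reads. Also without vehicle replicate 5, Agt was 0.052, Cd68 0.018, Arc 0.058, Fos -0.56, Btg2 -0.049 and Bdnf 0.057. Without both drugs replicate 3 in its place, Arc was 0.35, Fos -0.61, Junb 0.081, Nr4a1 0.055, Bdnf 0.26, Neat1 -0.078 and Slc17a7 0.053. Without both, Gfap was -0.021, Arc 0.12, Fos -0.65 and Bdnf 0.11. Leaving out single libraries moved Arc between -0.28 and 0.069, Fos between -0.53 and 0.49, Junb between -0.27 and 0.00061, Btg2 between -0.091 and 0.77, Bdnf between -0.18 and 0.036 and Tsr1 between -0.15 and 0.12. The causes were not tested. Depth limits genes of few reads such as Snord91a.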

Other observations

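Among lists not described above, 8 of 10 oligodendrocyte precursor genes tested over 12 libraries were negative (median -0.13), as were 8 of 12 neocortex genes (median -0.11, and -0.06 without both drugs replicate 3). Without vehicle replicate 3 the precursor median was -0.08. Of 11 extracellular matrix genes tested 7 were positive (median 0.28), and 9 over 9 libraries (median 0.10); without vehicle replicate 3 the 12-library median was 0.068, without both drugs replicate 3 the 9-library median was 0.012, and with a filter of 1 FPKM 2 of 6 were positive over 12 libraries (median -0.11). Of 13 interferon response genes 8 were positive (median 0.22), and 9 over 9 libraries (median 0.06); without vehicle replicate 3 the 12-library median was 0.024, without vehicle replicate 4 it was 0.05, and without both drugs replicate 3 the 9-library median was -0.028. Of 14 Alzheimer-linked genes 10 were positive (median 0.04), and 7 without both drugs replicate 3 (median -0.015). None of these genes was called by limma.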
